A study of Mus musculus with 8 samples.

Results

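The 8 genes Tcf7l2, Prkcd, Lef1, Rora, Plekhg1, Slc17a6, Synpo2 and Ramp3 are markers of thalamic neurons. They were chosen by gene symbol, as genes of a tissue that lies next to the dissected hippocampus, and make up 8 of the 29442 genes in the count table. All 8 had at least 1 count over the libraries, and so all were among the 27612 genes tested. Bulk RNA was sequenced from the hippocampus of female C57BL/6 J mice, 6 to 8 weeks old, given dehydroepiandrosterone (DHEA) or its vehicle. DHEA is a steroid made by the adrenal gland and the brain. It was injected under the abdominal skin at 30 mg/kg each day for 21 days in 4 mice, while 4 others received sesame oil, and all 8 went through behavioral tests before the tissue was taken. The methods name the ventral hippocampus as the source of the RNA, with a part of the tissue of each mouse used for sequencing, and the labels name hippocampus only. The design text of the series speaks of 6 tissues where 8 libraries are deposited, and DHEA 11 and sesame oil 9 have sample numbers apart from the other 6, so the genes were also fitted without these 2. Libraries are called by their group label and number, as DHEA 3, 4, 7 and 11 and sesame oil 5, 9, 10 and 16, and values are given in that order. Directions follow the deposited treatment labels, and the fold changes in the study's own list of differential genes have the opposite sign throughout, so the direction of each difference rests on the labels while its size does not. The paper reports qRT-PCR in further hippocampal samples that went the way of its own list. Pomc, Aox2 and Wnt3a were up with DHEA there, and Avpr1a, Ccr10 and P2ry10b down, and AVPR1a protein was lower by western blot. Whether the labels are exchanged was not tested.

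The thalamus is the relay between the sense organs, deeper brain regions and the cortex. Most of its neurons release glutamate and load it into vesicles with the transporter encoded by Slc17a6, whereas the pyramidal and granule cells of the hippocampus mainly use the one encoded by Slc17a7. Thalamic neurons are also known for the transcription factors Tcf7l2, Lef1 and Rora and for the signalling kinase encoded by Prkcd. None of the 8 genes is restricted to the thalamus. Tcf7l2 is also made in the oligodendrocyte lineage, Lef1 in endothelial cells and Synpo2 in smooth muscle. In bulk tissue, fewer cells of a type and less RNA per cell cannot be told apart.

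Between 31483772 and 38038361 reads were counted on genes per library, so 1 count was worth 0.0263 to 0.0318 CPM (counts scaled to library size). The libraries labelled DHEA held 35748416 to 38038361 counts and those labelled sesame oil 31483772 to 35418297, and the groups did not overlap. The share of mitochondrial counts was likewise higher in every library labelled DHEA, at 7.87%, 9.34%, 7.58% and 7.29% against 6.37%, 6.87%, 7.23% and 6.99%. Each library is labelled as a separate sample, and the labels give no batch. According to the methods, the mice were caged in groups and littermates served as controls, but no label ties a library to a cage or litter, so neither could enter the fit. The p-values below measure the spread between these 8 libraries only. The tissue label was checked against 12 genes of the dentate gyrus and CA fields. None of them was at 0 in any library, their median level was 17.0 FPKM (fragments scaled by gene length and library size), and Neurod6, a transcription factor of pyramidal neurons, was the most abundant at 105 FPKM. The median over the 8 thalamic marker genes was 1.65 FPKM.

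All 8 genes were present at low to moderate levels in every library. Levels are compared between genes on the FPKM scale, which divides by gene length. Slc17a6 had the highest mean at 6.72 ± 1.13 FPKM (SD, n = 8) and a range of 4.15 to 7.55. Prkcd followed at 5.78 ± 1.49 FPKM, with a range of 3.41 to 7.49. They did not differ beyond their spread, since Slc17a6 was above Prkcd in 4 of the 8 libraries.

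Ramp3 came next at 2.45 ± 0.522 FPKM. It was below Prkcd in 8 of 8 libraries, with a median ratio of 2.34 between the genes, and this was the only step in the order at which the ranges of neighbours did not overlap. The mean level was 1.82 ± 0.193 FPKM for Plekhg1 and 1.48 ± 0.159 FPKM for Lef1. Each of these genes was above the next in 7 of 8 libraries, with overlapping ranges. Rora and Tcf7l2 both had a mean of 1.13 FPKM, with Rora the higher in 5 of 8 libraries. The lowest level was that of Synpo2, at 0.842 ± 0.145 FPKM, which was under Tcf7l2 in 8 of 8 libraries although their ranges overlapped. Among 16813 genes averaging 10 counts or more, 59.2% had a lower FPKM than Slc17a6 and 23.6% a lower FPKM than Synpo2.

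The place of Rora in this order depended on the gene length used. The deposited FPKM divides Rora by 51.8 kb, while its longest transcript in the GENCODE annotation is 10.9 kb, a ratio of 4.76. The median ratio over the 139 genes of all lists examined here was 1.10. For Plekhg1 the ratio was 2.51. When CPM was divided by the longest transcript instead, Rora moved from the sixth to the third place, at 5.37 CPM per kb, and Prkcd came first at 8.96, ahead of Slc17a6 at 7.30. Synpo2 was lowest on both scales.

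**Figure D1:**
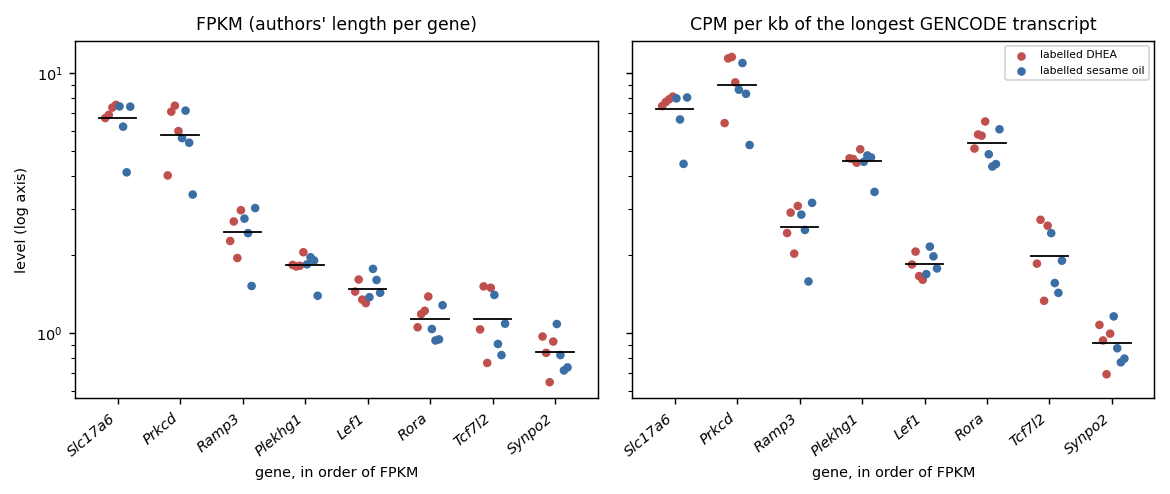
Level of each gene in the 8 libraries, as deposited FPKM (left) and as CPM per kb of the longest GENCODE transcript (right), on log axes, with red points for libraries labelled DHEA, blue points for those labelled sesame oil, and black lines for the mean over 8 libraries. Slc17a6 and Prkcd lie above the other genes on the FPKM scale, and Rora rises from 1.13 FPKM to 5.37 CPM per kb, from the sixth to the third place.

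Set against their nearest relatives, most of the 8 genes were minor members of their families. Slc17a6 (VGLUT2) held a median of 2.02% of the summed FPKM of the 3 vesicular glutamate transporters, with a range of 1.10% to 2.24%. The remainder was almost entirely Slc17a7 (VGLUT1), at 344 FPKM. Prkcd, the delta isoform of protein kinase C, held 1.76% among 5 isoforms, of which Prkcb (108 FPKM) was the most abundant. Synpo2 stood at 0.842 FPKM beside 16.5 FPKM for Synpo, which encodes the spine apparatus protein synaptopodin. Ramp3 held 9.65% of the 3 receptor activity-modifying proteins, behind Ramp2 (16.8 FPKM) and Ramp1 (6.50 FPKM). Per longest transcript the order of these 2 was reversed, with 16.8 CPM per kb for Ramp1, 9.88 for Ramp2 and 2.56 for Ramp3.

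The transcription factors were different, since they were not outweighed by a relative. Lef1 and Tcf7l2 were the 2 most abundant of the 4 TCF/LEF factors, the DNA-binding partners of beta-catenin in Wnt signalling. Tcf7l1 (0.363 FPKM) and Tcf7 (0.265 FPKM) were lower, but the FPKM divides these by 3.41 and 5.14 times the length of their longest transcript. Per longest transcript the gap was smaller, with 1.97 CPM per kb for Tcf7l2, 1.84 for Lef1, 1.36 for Tcf7 and 1.24 for Tcf7l1. Rora and Rorb, nuclear receptors of the ROR family, were close in FPKM at 1.13 and 1.18, but per longest transcript Rora held a median of 62.1% of the family.

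The comparison of the libraries labelled DHEA with those labelled sesame oil asks whether the thalamic markers moved with the treatment. None of the 8 genes had an adjusted p under 0.05 by edgeR (quasi-likelihood test, Benjamini-Hochberg over all genes), and 0% of all 27612 genes tested did. At an unadjusted p under 0.05, the count was 1 of 8 (Rora, higher), where 9.31% of all genes passed, 4.82% higher and 4.49% lower. A fold change of 2 or more together with such a p was reached by 0 of the 8 and by 1.6% of all genes. The mean was higher in the libraries labelled DHEA for 7 of the 8 markers and for 51.2% of all genes tested. All 8 markers averaged 100 counts or more, and of the 12780 genes that did, 15.7% had an unadjusted p under 0.05, 8.08% higher and 7.6% lower, and 53.4% were higher at any p. The median log2 fold change of the 8 genes was 0.16, beside 0.01 over all genes. In all 8 genes the groups overlapped, whereas they did not in 5.04% of all genes.

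Tcf7l2, the TCF/LEF factor that marks most thalamic and habenular neurons, had 6.86, 10.1, 4.94 and 9.61 CPM in the libraries labelled DHEA and 8.99, 5.78, 5.30 and 7.05 CPM in those labelled sesame oil. The lowest and the highest value were both in libraries labelled DHEA, and the values labelled sesame oil lay between them. Its group means were 7.88 ± 2.43 and 6.78 ± 1.65 CPM (SD, n = 4 each). The log2 fold change was 0.22 (SE 0.21, edgeR adjusted p = 0.666), with a 95% interval of -0.22 to 0.65. It was 0.07 without DHEA 4 and 0.39 without DHEA 7, where the unadjusted p was 0.0454 and the adjusted p 0.359. Without DHEA 11 and sesame oil 9 together it was 0.04. Of the 8 genes it varied most, with a coefficient of variation of 27.4% over the libraries.

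Lef1, the other TCF/LEF factor, was the only one of the 8 genes with a lower mean in the libraries labelled DHEA. Its values were 6.70, 7.52, 6.05 and 5.86 CPM against 6.16, 7.86, 7.21 and 6.47 CPM. The 2 lowest libraries were labelled DHEA (7 and 11) and the highest sesame oil (9), with the others mixed. Means of 6.53 ± 0.750 and 6.92 ± 0.761 CPM (SD, n = 4 each) gave a log2 fold change of -0.08 (SE 0.14, adjusted p = 0.848), which ran from -0.17 without DHEA 4 to -0.02 without sesame oil 9. Without DHEA 11 and sesame oil 9 together its sign turned, to 0.03.

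Rora, a nuclear receptor that also takes part in the circadian clock, had the smallest p of the 8 genes. It was at 55.7, 63.1, 62.4 and 70.8 CPM in the libraries labelled DHEA and at 53.0, 47.5, 48.6 and 66.1 CPM in those labelled sesame oil. Every library labelled DHEA exceeded 3 of the 4 labelled sesame oil, and only sesame oil 16 lay among them. The means were 63.0 ± 6.18 and 53.8 ± 8.54 CPM (SD, n = 4 each; two-sided exact permutation test of the means, p = 0.171).

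The log2 fold change of Rora was 0.23 (SE 0.10, 95% interval 0.03 to 0.43), with an unadjusted p of 0.0294 and an adjusted p of 0.485 by edgeR. With DESeq2 the unadjusted p was 0.0534. When 1 library was left out at a time, the log2 fold change ran from 0.17 to 0.34 and the unadjusted p from 0.00123 (without sesame oil 16) to 0.109 (without sesame oil 9), and 4 of the 8 values passed 0.05. Without DHEA 11 and sesame oil 9 together it was 0.11 (unadjusted p = 0.284).

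Slc17a6 was nearly constant in the libraries labelled DHEA, at 30.9, 32.0, 32.8 and 33.6 CPM. Among those labelled sesame oil it was at 33.1, 27.4, 18.5 and 33.3 CPM. Sesame oil 10 was the lowest of all and sesame oil 9 the second lowest, while the remaining 2 lay within the range of the libraries labelled DHEA. The means were 32.3 ± 1.16 and 28.1 ± 6.94 CPM (SD, n = 4 each), and the log2 fold change was 0.20 (SE 0.13, adjusted p = 0.643). Without sesame oil 10 it was 0.05.

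Prkcd had 18.3, 32.5, 32.9 and 26.3 CPM in the libraries labelled DHEA and 24.6, 31.2, 23.7 and 15.1 CPM in those labelled sesame oil. Each group held high and low libraries, with DHEA 4, DHEA 7 and sesame oil 9 at the top and DHEA 3 and sesame oil 16 at the bottom. Its highest value was 2.18 times its lowest, the widest span of the 8 genes. Group means were 27.5 ± 6.82 and 23.6 ± 6.60 CPM (SD, n = 4 each), with a log2 fold change of 0.22 (SE 0.18, adjusted p = 0.666) that was 0.05 without sesame oil 16, 0.37 without DHEA 3 (unadjusted p = 0.0290) and 0.38 without sesame oil 9 (unadjusted p = 0.0536). Without DHEA 11 and sesame oil 9 together it was 0.40 (unadjusted p = 0.0526, edgeR).

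Plekhg1, which encodes an exchange factor that activates small GTPases, was at 34.6, 34.4, 33.3 and 37.5 CPM against 33.6, 35.5, 34.9 and 25.7 CPM. Sesame oil 16 stood well below all others, which lay close together. The log2 fold change was 0.11 (SE 0.09, adjusted p = 0.666), and 0.00 without sesame oil 16.

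Ramp3 encodes a membrane protein that pairs with the calcitonin receptor-like receptor and sets which peptide it binds. It had 3.23, 3.87, 2.69 and 4.11 CPM against 3.8, 3.32, 2.10 and 4.22 CPM, from 75 to 150 counts per library. Both the lowest (10) and the highest (16) library were labelled sesame oil. Synpo2, an actin-binding protein, had 9.88, 8.61, 6.38 and 9.14 CPM against 10.7, 8.03, 7.09 and 7.33 CPM. Its highest library was sesame oil 5 and its lowest DHEA 7. The log2 fold changes were 0.05 (SE 0.22, adjusted p = 0.958) for Ramp3 and 0.04 (SE 0.16, adjusted p = 0.950) for Synpo2, and both lay close to 0. That of Ramp3 turned negative without DHEA 4, DHEA 11 or sesame oil 10, and that of Synpo2 without DHEA 3, sesame oil 10 or sesame oil 16.

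**Figure D2:**
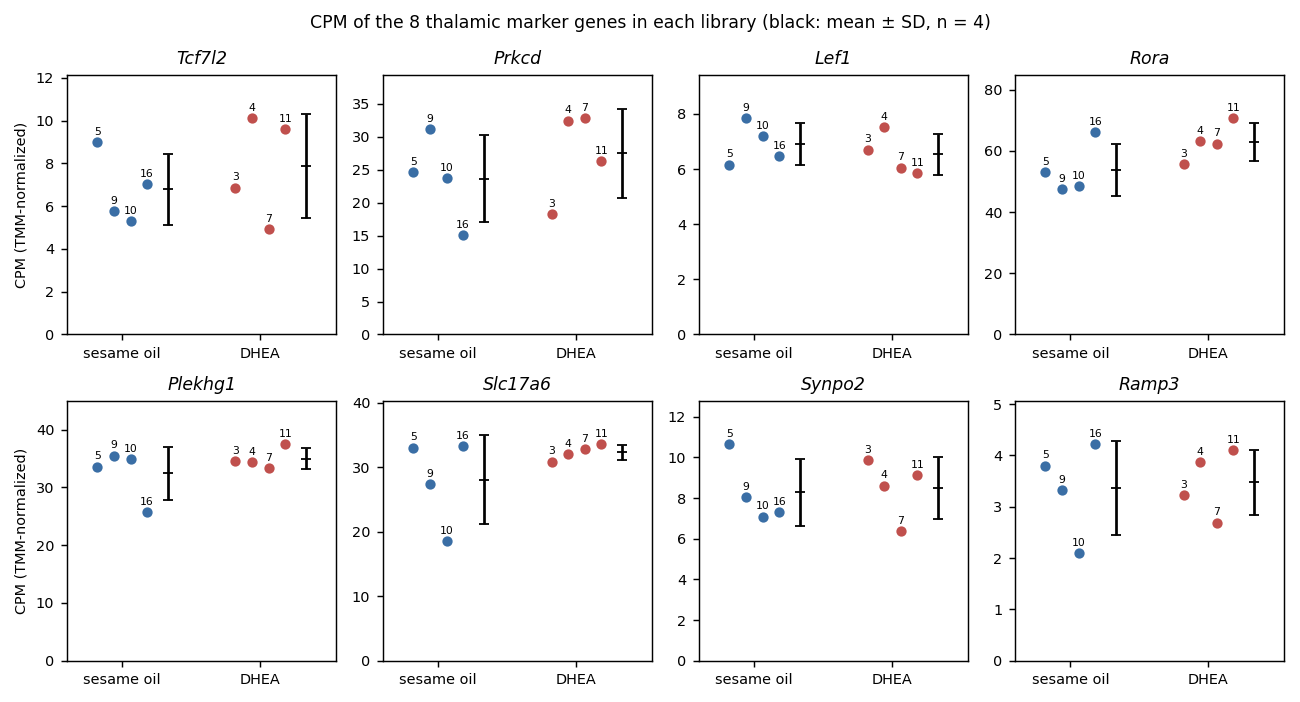
CPM of each of the 8 genes (TMM-normalized, vertical axis from 0) in the libraries labelled sesame oil (blue) and DHEA (red), with the library number above each point and the mean ± SD (n = 4) in black. The groups overlap in all 8 panels, and single low libraries stand out for Slc17a6 (sesame oil 10, 18.5 CPM) and Plekhg1 (sesame oil 16, 25.7 CPM).

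DHEA 4 was above the mean over libraries for all 8 genes, on the log2(CPM + 0.5) scale, and in the upper 4 libraries for 6 of them. DHEA 11 was above the mean for 7 genes and the highest library for 3, but the lowest for Lef1. No library was below the mean for all 8 genes. Sesame oil 10 was in the upper 4 libraries for 2 genes and lowest for 2 (Slc17a6 and Ramp3), and its summed FPKM over the 8 genes was 17.0, against 19.3 to 23.6 in the other libraries. Sesame oil 16 was lowest for Prkcd and Plekhg1 but highest for Ramp3.

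**Figure D3:**
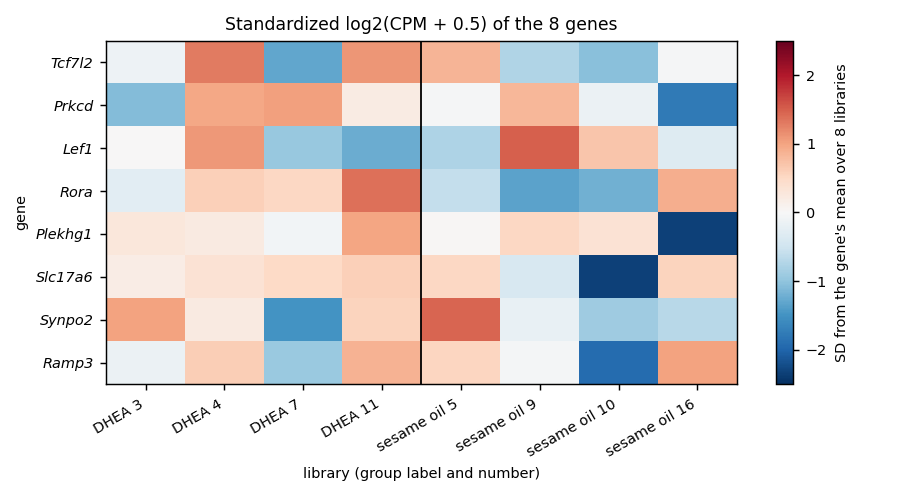
Level of each gene (rows) in each library (columns) as log2(CPM + 0.5), shown as the number of standard deviations from the mean of that gene over the 8 libraries, red above and blue below. The column of DHEA 4 lies above the mean for all 8 genes, while the other columns mix both colours, as in sesame oil 16, which is lowest for Prkcd and Plekhg1 and highest for Ramp3.

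The relations between the 8 genes across the libraries went both ways. Pearson's r between log2(CPM + 0.5) values was above 0 in 14 of the 28 pairs and below 0 in 14, with a median of 0.05 and a range of -0.600 to 0.804. In 3 pairs the unadjusted p was under 0.05 and in 0 the adjusted p was (exact permutation over 40320 pairings, Benjamini-Hochberg over 28 pairs).

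The 3 pairs were Slc17a6 with Ramp3, Tcf7l2 with Ramp3, and Rora with Slc17a6. For Slc17a6 and Ramp3, r was 0.804 (exact permutation p = 0.0263, adjusted 0.246) and Spearman's rho 0.762. Without the 2 libraries farthest from the median of the first-named gene of the pair, here Slc17a6, r was 0.407. Tcf7l2 and Ramp3 had an r of 0.782 (exact permutation p = 0.0190, adjusted 0.246) and a rho of 0.786, and r was 0.759 without 2 libraries. For Rora and Slc17a6 r was 0.683 (exact permutation p = 0.0220, adjusted 0.246) and rho 0.810, with an r of 0.518 without 2. For Prkcd, r was close to 0 with Tcf7l2 (-0.02) and with Slc17a6 (-0.03).

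Prkcd had its closest relations with genes outside the 8. Of 112 pairs between the 8 genes and 14 further thalamic genes, 7 had an unadjusted p under 0.05 for r and 2 an adjusted one, and both of these held Prkcd. These pairs were examined after the values of the genes had been seen. With Zic1, a zinc finger transcription factor, r was 0.918 (exact permutation p = 0.000347, adjusted p = 0.0236) and rho 0.905 (exact permutation p = 0.00456, adjusted p = 0.256). With Calb2, which encodes the calcium-binding protein calretinin, r was 0.941 (exact permutation p = 0.000422, adjusted p = 0.0236) and rho 0.952 (exact permutation p = 0.00114, adjusted p = 0.128). Without the 2 libraries farthest from the median of Zic1 or of Calb2, r was 0.903 with Zic1 and 0.894 with Calb2. On deviations from the group means it was 0.919 and 0.945. These 2 pairs did not extend to the 14 genes as a list. With their mean level, Prkcd had an r of 0.04 (exact permutation p = 0.925) and a rho of -0.119 (exact permutation p = 0.793). That r was -0.800 without the 2 libraries farthest from the median of the list mean.

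Zic1 had 1000, 2107, 1865 and 1338 counts in the libraries labelled DHEA and 913, 1813, 958 and 644 in those labelled sesame oil. Like Prkcd, it was high in DHEA 4, DHEA 7 and sesame oil 9 and lowest in sesame oil 16. Calb2, the most abundant of the 14 genes at 23.4 FPKM, had 1124, 1286, 1402 and 1205 counts against 1150, 1291, 1130 and 903. Its highest 3 libraries by CPM were the same as those of Prkcd, and its lowest was again sesame oil 16. The mean level of Calb2 was above the median of the dentate gyrus and CA genes (17.0 FPKM), while the lowest of the 14 was Gbx2 at 0.0901 FPKM. Which cells made these 14 genes was not tested. Neither Zic1 nor Calb2 passed the test between the groups, with log2 fold changes of 0.44 (SE 0.24, adjusted p = 0.586) for Zic1 and 0.05 (SE 0.10, adjusted p = 0.866) for Calb2. The value of Zic1 rested on single libraries. It was 0.61 without DHEA 3 (unadjusted p = 0.00952, adjusted p = 0.506), 0.80 without sesame oil 9 (unadjusted p = 0.000672, adjusted p = 0.208) and 0.25 without DHEA 4, all by edgeR.

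**Figure D4:**
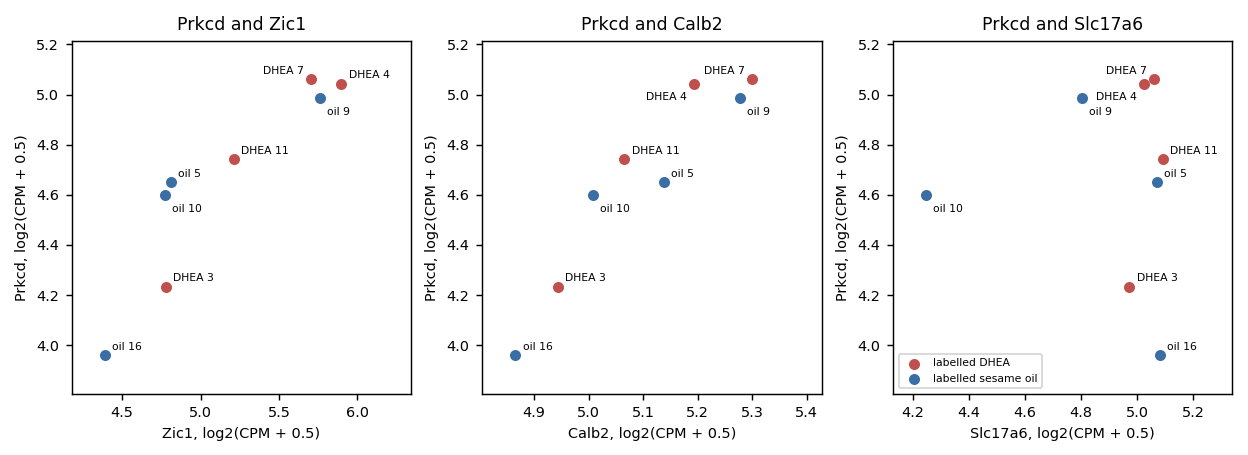
Prkcd against Zic1, Calb2 and Slc17a6, each as log2(CPM + 0.5), with 1 point per library (red labelled DHEA, blue labelled sesame oil, "oil" short for sesame oil). The points of the first 2 panels lie along a rising line with both groups mixed (r = 0.918 and 0.941), and those of the third do not (r = -0.03).

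The genes most like Prkcd among 12772 genes averaging 100 counts or more were Ino80dos (r = 0.965), Cacng5 (0.950) and Nfe2l3 (0.947), over 8 libraries. Those most opposite were Bckdhb (-0.949), Dhrsx (-0.941) and Azin2 (-0.940). For Tcf7l2 the nearest were Bmt2 (0.959), Cyb5rl (0.951) and Fgfr1op2 (0.942), and the most opposite Spry2 (-0.971), Anapc1 (-0.943) and A730017L22Rik (-0.916). Against the mean of the standardized values of the 8 genes, Cutc (0.961), Mtmr2 (0.957), Spry1 (0.940), Usp53 (0.931) and Bmt2 (0.931) were nearest. Trpv2 (-0.931), Spry2 (-0.928), Arhgap1 (-0.907), Ankrd55 (-0.899) and Kidins220 (-0.897) were the most opposite.

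The 14 further thalamic genes were compared between the groups in the same way. The libraries labelled DHEA had the higher mean for 5 of them and the lower for 9, with a median log2 fold change of -0.09 beside 0.16 for the 8 markers. This median ran from -0.17 without DHEA 11 to -0.02 without sesame oil 16, and that of the markers from 0.08 without sesame oil 10 to 0.20 without sesame oil 5. At an unadjusted p under 0.05, 0 were higher and 5 lower (4.49% of all genes were lower), and 0 had an adjusted p under 0.05 in edgeR. With DESeq2, 1 did (Lhx9), beside 153 of all genes. The difference between the lists was not tested.

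Lhx9, a LIM homeobox factor of the developing thalamus, was the only one of the 14 without overlap between the groups, beside 5.04% of all genes. It had 595, 532, 567 and 609 counts against 712, 648, 685 and 583, or 15.8 ± 0.724 against 19.6 ± 1.30 CPM (SD, n = 4 each; exact permutation test of the means, two-sided, p = 0.0286, the lowest that 4 against 4 can give). Sesame oil 16, the library with the fewest counts, lay above every library labelled DHEA on the CPM scale but not in counts. The log2 fold change of Lhx9 was -0.31 (SE 0.09), with an adjusted p of 0.293 in edgeR and 0.0456 in DESeq2.

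Cacna1g, which encodes a T-type calcium channel behind the burst firing of thalamic neurons, had 1819, 1523, 2546 and 2123 counts against 2575, 2307, 2309 and 2361. DHEA 3 and 4 were low and DHEA 7 lay among the libraries labelled sesame oil. The log2 fold change was -0.37 (SE 0.11, edgeR adjusted p = 0.299). Without DHEA 7 it was -0.52, with an adjusted p of 0.0332. Ntng1, the axon guidance protein netrin-G1, had a log2 fold change of -0.20 (SE 0.08, adjusted p = 0.487), and 4 of 8 fits without 1 library had an unadjusted p of 0.05 or more.

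The homeobox genes Gbx2 and Shox2 were barely counted. Gbx2, which marks many thalamic neurons, had 0, 0, 1 and 6 counts in the libraries labelled DHEA and 8, 4, 3 and 28 in those labelled sesame oil. The groups overlapped, and 28 of the counts came from sesame oil 16. The 2 counts of 0 allow up to 0.0789 CPM in DHEA 3 and 0.0815 CPM in DHEA 4, by 3 counts of the total and for counting error only. Its log2 fold change was -2.69 (SE 0.99, adjusted p = 0.402), and ran from -1.56 without sesame oil 16 (unadjusted p = 0.169) to -4.71 without DHEA 11 (unadjusted p = 0.00125). Gbx2 is also in the study's own list of differential genes, which was drawn from these libraries and is not independent of these values.

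Shox2 had 2, 30, 3 and 13 counts against 85, 6, 20 and 21. The 85 counts of sesame oil 5 carried most of its difference, since the log2 fold change was -1.57 (SE 0.73, adjusted p = 0.531) with that library and -0.49 without it. Without DHEA 4 the log2 fold change was -2.58 (edgeR unadjusted p = 0.00287, adjusted p = 0.361).

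**Figure D5:**
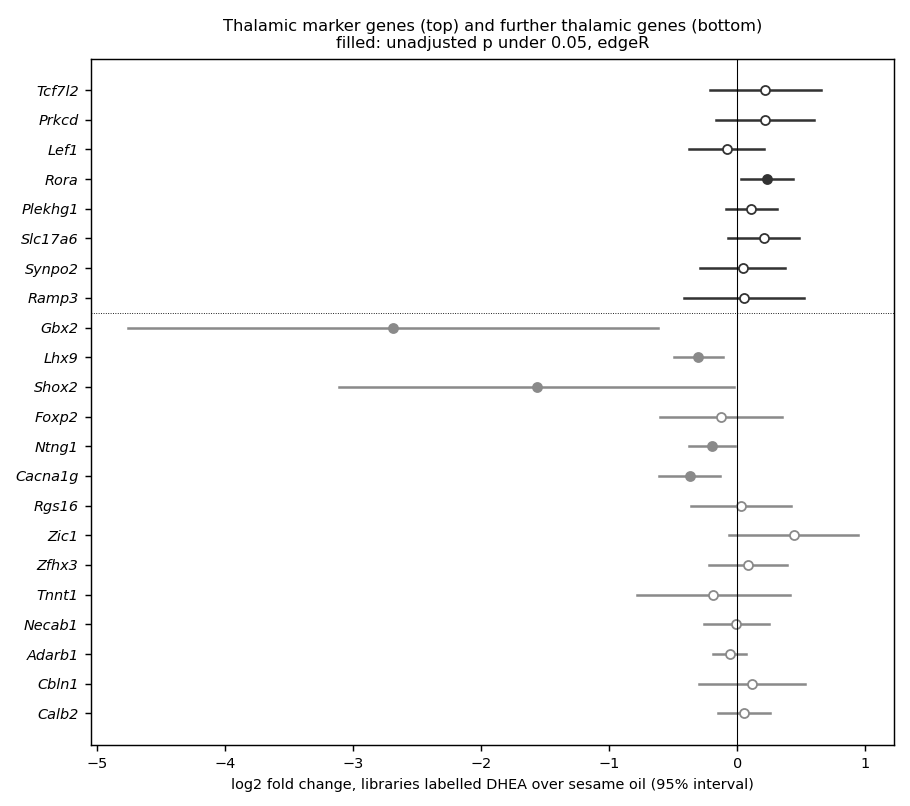
Log2 fold change of the libraries labelled DHEA over those labelled sesame oil with its 95% interval (edgeR) for the 8 marker genes (black, top) and the 14 further thalamic genes (grey, bottom), filled where the unadjusted p was under 0.05. Rora (0.23) is the only filled marker, and the 5 filled genes below (Gbx2, Lhx9, Shox2, Ntng1 and Cacna1g) lie left of 0, with wide intervals for Gbx2 and Shox2.

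Genes of other tissues and cell types near or within the dissection were measured beside the 8 markers. The 8 genes of the medial habenula, which adjoins the thalamus and also makes Tcf7l2 and Slc17a6, had a median of 0.254 FPKM, and 0 of them had an unadjusted p under 0.05, beside 9.31% of all genes. Their median log2 fold change was 0.09 (-0.05 without DHEA 11). The most abundant was Lrrc55 (3.92 FPKM), while Pou4f1, its defining transcription factor, had 0 to 3 counts. In the 9 neocortical genes, 0 were higher and 1 lower (Fezf2, log2 fold change -0.39, SE 0.10, adjusted p = 0.245 in edgeR and 0.0498 in DESeq2), beside 4.49% of all genes that were lower. The lower count was 2 without sesame oil 10, and 1 gene was higher without sesame oil 16. The summed level of these genes was highest in sesame oil 16, at 69.9 FPKM against 44.3 to 59.2 in the other libraries. That library, the lowest for Prkcd and Plekhg1, also had the lowest mean log2 CPM of the dentate gyrus and CA genes, 5.89 against 6.01 to 6.21. Their summed FPKM was not lowest there (261, and 259 in DHEA 11). Of the 8 genes of striatum and central amygdala 0 passed in either direction, with 1 higher without DHEA 4, 1 lower without DHEA 7 or DHEA 11, and a median log2 fold change of -0.09 to 0.11 when 1 library was left out. Of the 12 genes of dentate gyrus and CA fields, 3 were higher (Tdo2, Bok and Spink8) and 0 lower at an unadjusted p under 0.05 (4.82% of all genes were higher), with a median log2 fold change of -0.03 (0.01 without DHEA 7). Without DHEA 4 none of them was higher at that threshold, and without sesame oil 5 or 16 only 1 was. The number lower was 0 to 1 when 1 library was left out, and 1 without DHEA 3.

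Most glial and vascular genes had a higher mean in the libraries labelled DHEA. All 11 oligodendrocyte genes had a higher mean, beside 51.2% of all genes, and the median log2 fold change was 0.38. In 10 of them the unadjusted p was under 0.05, beside 4.82% of all genes that were higher with such a p and 8.08% of those averaging 100 counts or more. An adjusted p under 0.05 was reached by 0 in edgeR, by 3 in DESeq2 and by 2 in edgeR without DHEA 7. Over all genes, these fits gave 0, 153 and 93. Their summed level was 1467, 1809, 1513 and 1566 FPKM against 1201, 1464, 1194 and 1006 FPKM, highest in DHEA 4, lowest in sesame oil 16 and without overlap, and none of the genes was at 0. Of the 8 astrocyte genes 5 were higher, of the 10 endothelial genes 4 and of the 7 mural genes 1 at an unadjusted p under 0.05, with 0 lower in each list and medians of 0.17, 0.12 and 0.08. When 1 library was left out, these medians ran from 0.11 (without DHEA 4) to 0.21 in astrocytes, from 0.06 (without DHEA 4) to 0.18 (without DHEA 7) in endothelium and from 0.04 (without DHEA 3) to 0.22 (without DHEA 7) in mural cells. Adjusted p under 0.05 were 0 in these lists in edgeR and 2 in DESeq2, both endothelial (Ly6c1 and Slco1a4), beside 153 of all genes in DESeq2. They were 3 in edgeR without DHEA 7, all endothelial, beside 93 of all genes in that fit. The astrocyte count depended on single libraries and on the method, being 1 without sesame oil 5 or 10, 2 without DHEA 4, 3 without sesame oil 16, 3 with DESeq2, 2 with either stricter filter on counts and 1 with limma at either pseudocount. The mural gene was Rgs5, and the count was 0 without DHEA 4 and 2 without DHEA 7. The 8 genes of inhibitory neurons had a median of -0.02 (0.02 without sesame oil 16), and 0 passed in either direction, with 1 higher without DHEA 11. The part of these cell types in the values of the 8 markers was not tested.

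Choroid plexus genes differed most between single libraries. All 10 had a higher mean in the libraries labelled DHEA, beside 51.2% of all genes. By edgeR, 0 of the 10 passed an unadjusted p under 0.05, where 4.82% of all genes were higher, and the median log2 fold change was 0.45. Without DHEA 4, all 10 passed an unadjusted p under 0.05, beside 1983 of all genes in either direction, and the median was 0.82. Without DHEA 3, DHEA 11 or sesame oil 9 the median was 0.11, 0.20 or 0.18. The direction of the median turned with limma on log2(FPKM + 0.1), to -0.14, and without DHEA 11 and sesame oil 9 together, to -0.06. Ttr, the transport protein transthyretin and the most abundant of them, had 149156, 2154, 70750 and 136918 counts against 93893, 14597, 64539 and 63417. DHEA 4 and sesame oil 9 were the lowest, and these were the 2 highest libraries for Lef1.

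Correlations of the 8 genes with the mean level of 13 lists gave 9 of 104 pairs with an unadjusted p under 0.05 for r and 0 with an adjusted one (exact permutation). In 3 of the 9, r stayed beyond 0.7 in size without the 2 libraries farthest from the median of the list mean. Plekhg1 and the list of inhibitory neurons had an r of -0.800 (exact permutation p = 0.00858, adjusted 0.361; rho -0.762, exact permutation p = 0.0368), and -0.764 without 2. For Synpo2 and the list of striatum and central amygdala r was -0.798 (exact permutation p = 0.0173, adjusted 0.361; rho -0.857, exact permutation p = 0.0107), and -0.864 without 2. Prkcd and the relatives and partners had an r of 0.844 (exact permutation p = 0.00689, adjusted 0.361; rho 0.786, exact permutation p = 0.0279), and 0.817 without 2.

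In the other 6 pairs r was smaller in size when 2 libraries were left out in this way. They were Plekhg1 with the relatives (r = 0.919, and 0.0503 without 2), Synpo2 with the mural list (0.828 and 0.546), Synpo2 with the Wnt targets (0.754 and 0.408), Plekhg1 with dentate gyrus and CA fields (0.751 and 0.239), Lef1 with the choroid plexus (-0.746 and -0.296) and Prkcd with the oligodendrocytes (0.725 and 0.250). Among the further cell types that make these genes, Tcf7l2 had an r of 0.274 with the oligodendrocyte list (exact permutation p = 0.514, adjusted 0.927) and Lef1 an r of 0.133 with the endothelial list (exact permutation p = 0.739, adjusted 0.961). For Synpo2, the r of 0.828 with the mural list had an exact permutation p of 0.0117 (adjusted 0.361). Its rho was 0.833 (exact permutation p = 0.0154).

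Among 20 relatives and partners of the 8 genes, 2 were higher and 3 lower at an unadjusted p under 0.05 (4.82% and 4.49% of all genes), and the median log2 fold change was 0.02 (-0.01 without sesame oil 16). When 1 library was left out, the counts ran from 0 (without DHEA 4) to 4 (without sesame oil 9) higher and from 1 (without sesame oil 10) to 3 lower. Calcrl, the receptor that pairs with Ramp3, had 462, 534, 329 and 460 counts against 315, 336, 342 and 278. DHEA 7 lay among the libraries labelled sesame oil and the others above them, and the log2 fold change was 0.37 (SE 0.13, adjusted p = 0.389). Calcr, the calcitonin receptor and another partner of Ramp3, had only 1 to 14 counts.

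Synpo was at 136 ± 7.44 CPM in the libraries labelled DHEA and 160 ± 6.75 CPM in those labelled sesame oil (SD, n = 4 each), without overlap, and its log2 fold change was -0.24 (SE 0.06, adjusted p = 0.245 in edgeR and 0.0261 in DESeq2). Plekhg5 had a log2 fold change of -0.23 (SE 0.09, edgeR adjusted p = 0.417). Plekhg1 held 7.79% ± 0.736 of the summed FPKM of 4 Plekhg genes in the libraries labelled DHEA and 6.45% ± 0.376 in those labelled sesame oil (SD, n = 4 each; two-sided exact permutation test, p = 0.0286, adjusted p = 0.179 over 25 family shares). The share of Slc17a6 among the vesicular glutamate transporters was 2.11% ± 0.135 and 1.73% ± 0.431 (SD, n = 4 each; two-sided exact permutation test, p = 0.0857, adjusted p = 0.306).

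Targets of Wnt signalling, the pathway that acts through Tcf7l2 and Lef1, were mixed in direction. Of 7 such genes, 3 were higher and 4 lower, with 0 at an unadjusted p under 0.05, beside 4.82% of all genes that were higher and 4.49% that were lower with such a p. Their median log2 fold change was -0.03, and 0.03 without sesame oil 5. Ccnd1, which encodes cyclin D1, was the most abundant at 15.4 FPKM.

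The promoters of the 8 genes were searched on both strands for the letters bound by their own transcription factors. RefSeq windows on GRCm38.p6 from 250 bases before to 50 bases after each start were used, 14 windows in all for the 8 genes. CTTTGAT or CTTTGAA (TCF/LEF) was in 0 of the 14 windows, beside 8.65% of all 32851 windows. TAGGTCA or TGGGTCA (ROR) was also in 0 of 14, beside 6.45% of all windows. These letters were thus not in the windows searched.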

How the data were processed

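The authors sequenced polyA RNA as paired-end reads of 150 bases. The submitters' processing notes name fastp, HISAT2, HTSeq and GRCm39, with versions not given in the sources used here. The deposited counts per gene are whole numbers and not normalized. The deposited FPKM values were made by the authors with a length per gene that the sources used here do not give. That length was computed back from the counts, the library totals without TMM and the FPKM, as the median over libraries. Conditions were taken from the labels. Counts were fitted with edgeR 4.0.16 in R 4.3.3 (TMM, quasi-likelihood test, genes with at least 1 count, Benjamini-Hochberg over 27612 genes), and CPM use TMM library sizes. DESeq2 1.42.0, limma 3.58.1 on FPKM, other filters and leaving out libraries were alternatives. Single values were compared by exact permutation over 70 allocations. The 8 genes and all lists were chosen with earlier results of these data known. From each list, genes with an unadjusted p under 0.05, the most abundant and those at 0 could be named, and Zic1 was named after its values were seen. The test was run on simulated data before use, with an adjusted p under 0.05 as a call. There edgeR recovered 97% of 100 genes set to a log2 fold change of 1 in size and 100% of 100 set to 2. It also made 57 false calls among 26664 genes tested, and DESeq2 made 41. An adjusted p under 0.05 thus let through more false calls than its threshold states. In libraries compared pairwise, counts differed by more than sampling noise (chi-square per degree of freedom 7.48 to 52.6), so each is 1 sample. Some genes of the lists are counted but not reported here by name.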

Additional observations from a re-analysis of the deposited data

How the results depend on the processing

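The values of the 8 genes were recomputed under 16 alternatives. No gene of the 8 had an adjusted p under 0.05 in any of them (the lowest was 0.327, for Rora), and the median log2 fold change of the 8 genes lay between 0.07 and 0.20. The number of the 8 with an unadjusted p under 0.05 and a higher level was 1 and became 0 with DESeq2, with a filter of at least 10 counts, with filterByExpr, with limma on FPKM at either pseudocount, 1 or 0.1, and in the 6 libraries with consecutive sample numbers, an alternative chosen after seeing the data. Leaving out 1 library gave 0 to 2, with 2 without DHEA 3 or DHEA 7 and 0 without DHEA 11 or sesame oil 5, 9 or 10. The number of lower genes was 0 throughout. The sign turned for Lef1 (0.0305), Synpo2 (-0.0114) and Ramp3 (-0.0457) in the 6 libraries, and without 1 library Synpo2 ran from -0.0410 to 0.184 and Ramp3 from -0.121 to 0.170. Of the 14 further thalamic genes, 5 were lower at an unadjusted p under 0.05, and 2 to 5 under the alternatives, while 0 were higher, and 1 (Zic1) without DHEA 3, without sesame oil 9 and in the 6 libraries. Over all genes, edgeR left 0 under 0.05 after adjustment (2571 before it), DESeq2 153, and the edgeR counts were 38 in the 6 libraries and 0 to 93 without 1 library, 93 being without DHEA 7. Before adjustment, 1786 to 3667 genes were under 0.05 without 1 library. When a fold change of 2 was required besides an unadjusted p under 0.05, 442 genes passed, and 164 with DESeq2, 284 with at least 10 counts, 62 with filterByExpr, 1 and 48 with limma at pseudocounts 1 and 0.1, and 361 to 512 without 1 library. The causes of these shifts were not tested. No paired analysis was possible because the groups share no replicate numbers. Ramp3, with 75 to 150 counts per library, had the widest interval of the 8 genes.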
